A study of Homo sapiens with 24 samples.

Results

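SOX genes encode transcription factors that share the HMG box, a DNA-binding domain related to that of the TCF/LEF factors. The account below follows 7 of them, SOX2, SOX4, SOX6, SOX9, SOX12, SOX13 and SOX21, which were chosen by name, with earlier results of these data known, and matched by Ensembl identifier among 58051 gene identifiers. Each was compared between CTNNB1 knock-out (KO) and wild-type (WT) clones within each cell line, between clones of the same genotype, and between the WT clones of different lines. CTNNB1 encodes β-CATENIN, the coactivator through which WNT signals reach TCF/LEF-bound genes.

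RNA-seq was carried out on HT29, HCT116 and SW480, 3 established human colorectal carcinoma cell lines that carry an active WNT/β-CATENIN pathway. Per the authors, HT29 and SW480 have inactivating APC mutations, and HCT116 has a gain-of-function mutation in CTNNB1 itself. Each line was represented by 2 WT clones (11 and 40 in HT29, 4 and 6 in HCT116, 4 and 5 in SW480) and 2 KO clones (28 and 38 in HT29, 44 and 47 in HCT116, 17 and 21 in SW480). In the KO clones exon 7 of CTNNB1 had been removed from both alleles with CRISPR/Cas9, and no clone received any further treatment. The WT clones, per the authors, were also exposed to CRISPR/Cas9 and cloned likewise, but kept CTNNB1 unedited. The clones went through sequencing in round A and again in round B, for 24 libraries in all and 4 per line and genotype (2 clones by 2 rounds). A group thus holds 2 clones that were each measured in 2 rounds, and p-values over its 4 libraries treat the rounds of a clone like separate clones.

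The family is divided into groups by sequence. SOX2 belongs to the SoxB1 group of activators that maintain stem and progenitor cells, and SOX21 to the SoxB2 group, whose members mostly repress. SOX4 and SOX12 belong to the SoxC group, which acts in progenitor cells, and SOX4 is often abundant in carcinomas. SOX6 and SOX13 are SoxD factors, which have no activation domain of their own and work with other SOX factors. SOX9, a SoxE factor, marks the proliferative base of the intestinal crypt and is needed for Paneth cells. Several SOX proteins can bind β-CATENIN or TCF/LEF factors, and some SOX genes are themselves controlled by WNT signaling in the intestine.

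RefSeq promoter entries on build GRCh38.p14 were present for 6 of the 7 genes, with 5 entries for SOX6 and no entry for SOX9. The 250 bases before the start are shown for the 2 SoxC genes, which were lower in KO clones of SW480, and for SOX2 and SOX6, whose entries alone held a match to the TCF/LEF core. The core was searched as CTTTGA and CTTTGT on both strands, with TCAAAG and ACAAAG as the reverse complements, and matches are in capitals. SOX factors bind closely related letters, so a match does not tell these factors apart. The positions are chr6:21593501-21593750 (plus strand) for SOX4, chr20:325302-325551 (plus) for SOX12, chr3:181711675-181711924 (plus) for SOX2 and chr11:16356547-16356796 (minus) for the SOX6 entry.
SOX4: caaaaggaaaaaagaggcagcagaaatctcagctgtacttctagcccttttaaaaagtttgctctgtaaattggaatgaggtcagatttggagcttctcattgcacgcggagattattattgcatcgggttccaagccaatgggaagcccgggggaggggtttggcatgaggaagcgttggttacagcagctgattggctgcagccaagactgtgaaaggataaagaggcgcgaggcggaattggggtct
SOX12: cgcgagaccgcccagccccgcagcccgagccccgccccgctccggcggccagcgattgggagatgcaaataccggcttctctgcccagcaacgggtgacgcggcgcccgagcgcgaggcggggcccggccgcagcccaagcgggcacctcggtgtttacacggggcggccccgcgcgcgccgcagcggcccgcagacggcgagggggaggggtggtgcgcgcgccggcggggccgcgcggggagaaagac
SOX2: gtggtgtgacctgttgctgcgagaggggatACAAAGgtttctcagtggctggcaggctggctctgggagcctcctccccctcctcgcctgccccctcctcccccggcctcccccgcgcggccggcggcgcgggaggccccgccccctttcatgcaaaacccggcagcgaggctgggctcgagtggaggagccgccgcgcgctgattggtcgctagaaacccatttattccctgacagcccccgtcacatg
SOX6: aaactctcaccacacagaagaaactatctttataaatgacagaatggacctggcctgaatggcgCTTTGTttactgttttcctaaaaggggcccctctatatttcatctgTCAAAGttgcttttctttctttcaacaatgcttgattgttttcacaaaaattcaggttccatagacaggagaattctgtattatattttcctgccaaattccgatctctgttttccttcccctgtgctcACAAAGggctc
The SOX4 and SOX12 windows held no match, and neither did those of SOX13, SOX21 and the other SOX6 entries. The SOX2 window held 1 match that began 220 bases before the start. The SOX6 window held 3, at 186, 140 and 11 bases before the start. Among all 35116 RefSeq promoters of this length 11.2% held CTTTGA, 13.7% held CTTTGT and 22.8% held either, so such letters were common and are given as a description.

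In GRCh37, the build to which the authors aligned, SOX4 lies at chr6:21593982-21598850 and SOX12 at chr20:306196-310868, both on the plus strand. SOX9 lies at chr17:70117161-70122557 (plus strand) and is overlapped by the antisense gene SOX9-AS1. SOX13 occupies chr1:204042243-204096871 (plus) and SOX6 chr11:15987995-16761138 (minus). SOX2 at chr3:181429713-181432224 (plus) lies within SOX2-OT on the same strand, and SOX21 at chr13:95361876-95364799 (minus) is overlapped by SOX21-AS1. The strand setting of the counting is not given in the sources used here, so reads from the antisense genes cannot be told apart. For SOX2-OT, on the same strand as SOX2, no strand setting would separate the reads.

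The libraries held between 22297049 and 29068378 reads on genes, with a median of 27486225. The targeted gene followed the labels in every library. In HT29, CTNNB1 ran from 5883 to 6113 normalized counts among WT and from 256 to 337 among KO libraries. HCT116 gave 10512 to 12800 against 187 to 255, and SW480 gave 43114 to 50939 against 839 to 1312. The round A library of HCT116 KO clone 47 stood apart, since 35449 genes had at least 1 read in it and 20256 to 24944 in the other 23. SOX5, SOX2-OT and the RNA gene CASC15 had 17, 11 and 19 reads in that library and at most 11, 5 and 7 in any other, so the low values of HCT116 KO libraries below are given with and without it. Of 10 colorectal epithelial markers, 6 to 8 per group were at 10 or more in all 4 libraries, although CDX1 stood at 3 reads or fewer in 5 of the 6 groups. LGALS4 was as low in HCT116 WT, HCT116 KO and SW480 KO, and KRT20 in HCT116 KO and SW480 KO. The summed level of the 10 markers was 325834 to 466928 normalized counts in HT29 WT and 490423 to 784641 in HT29 KO libraries. Its WT and KO ranges overlapped in HCT116 and SW480. The summed level of 4 leukocyte markers never exceeded 24.5, whereas 5 fibroblast markers summed to 13.2 to 23.0 in HT29 WT and to 109 to 1210 in HT29 KO libraries, with COL1A2, COL3A1 and DCN at 3 reads or fewer in both. The 2 endothelial markers, CDH5 and VWF, summed to 9.65 to 27.4 in SW480 WT and to 116 to 234 in SW480 KO libraries, with CDH5 at 3 reads or fewer in both, and never exceeded 30.0 in the other lines. The part of these markers in the results was not tested. In bulk RNA, fewer cells that express a gene and less RNA per cell cannot be told apart.

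SOX9 and SOX4 were the most abundant members in WT cells when normalized counts were divided by exon length. In WT HT29 libraries SOX9 stood at 1059.5 ± 200 counts per kb (SD, n = 4) and SOX4 at 452 ± 79.5, with no overlap between the libraries of the 2 genes. SOX12 followed at 122 ± 96.2 and SOX13 at 105 ± 25.7 counts per kb, and their libraries overlapped. In WT SW480 the order was SOX9 (1316 ± 149), SOX4 (506 ± 48.5), SOX12 (258 ± 17.9), SOX13 (206 ± 26.7) and SOX2 (79.7 ± 15.1 counts per kb), each step without overlap. HCT116 differed in that SOX9 (319 ± 38.9 counts per kb) overlapped SOX12 (352 ± 27.3), and that SOX4 (636 ± 289) had the highest mean, with libraries that overlapped both. SOX6 stayed below 1 count per kb in every WT group, and SOX21 was at 0 reads in all 16 HT29 and HCT116 libraries.

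**Figure D1:**
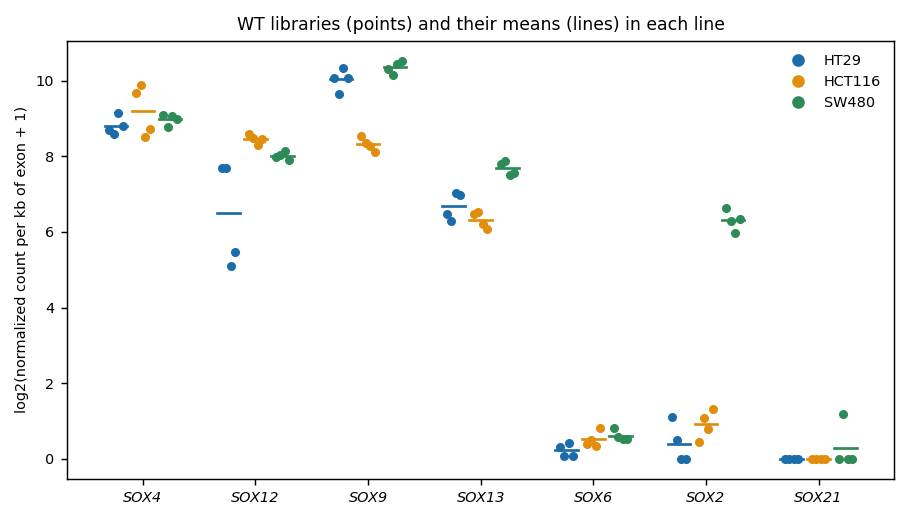
Level of the 7 SOX genes in the WT libraries of HT29, HCT116 and SW480, as log2 of normalized counts per kb of exon plus 1. Points are libraries (4 per line) and lines their means; SOX9 is lowest in HCT116, SOX12 is split by clone in HT29, and SOX2 is clearly above the floor in SW480 alone among these lines.

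Between WT clones of different lines, genes were tested with limma over the 12 WT libraries and called at an adjusted p under 0.05 with an absolute log2 difference over 1. Of the 5 members that passed the filter on low values, 2 were called between HT29 and HCT116, where 37.5% of all genes were called. Another 2 were called between HT29 and SW480, beside 40.1% of all genes, and 3 between HCT116 and SW480, beside 40.2%. SOX2 was among the called members in both comparisons with SW480. It passed the filter through the SW480 libraries alone, so its calls lend these counts no support. SOX9 differed most evenly, being lower in HCT116 than in HT29 (log2 difference of HT29 minus HCT116 1.72, SE 0.14, adjusted p = 1.53e-07) and than in SW480 (HCT116 minus SW480 -2.04, SE 0.14, adjusted p = 2.44e-08). SOX12 was lower in HT29 than in HCT116 (-1.99, SE 0.52, adjusted p = 0.00495) and than in SW480 (-1.54, SE 0.52, adjusted p = 0.0196), but WT clones 11 and 40 of HT29 differed widely. Without round B of HT29 WT clone 40 the second difference was -1.20 with an adjusted p of 0.0588, and with clones averaged the adjusted p values of both were 0.061 and 0.118. The difference from SW480 was also lost with edgeR (-1.03, adjusted p = 0.0865) and DESeq2 (-1.07, adjusted p = 0.0628). SOX13 was lower in HCT116 than in SW480 (-1.38, SE 0.17, adjusted p = 8.44e-06), and its difference of -0.998 between HT29 and SW480 stayed just inside the fold threshold and passed it without either round of HT29 WT clone 40 or of SW480 WT clone 5. SOX4 was called in none of these comparisons, with differences of -0.39, -0.17 and 0.21.

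SOX4 is a SoxC factor linked to progenitor state and invasive growth of carcinoma cells. It fell in the KO clones of HCT116 to 21.0% and in those of SW480 to 13.6% of the WT mean, while in HT29 the KO mean was 81.1% of WT. In HCT116, WT clone 4 had 3962 and 4615 normalized counts in rounds A and B, and WT clone 6 had 1768 and 2032. The KO clones had 533 and 690 (clone 44) and 633 and 739 (clone 47), so that all KO libraries lay below all WT libraries. The log2 difference of KO minus WT was -2.14 (SE 0.29, adjusted p = 0.00119). In SW480, WT clones 4 and 5 had 2638, 2131, 2625 and 2457 normalized counts. KO clone 17 had 65 and 70, and KO clone 21 had 609 and 592. The groups again did not overlap, and the log2 difference was -3.60 (SE 0.78, adjusted p = 0.00561). When the rounds of each clone were averaged, the adjusted p was 0.114 in HCT116 and 0.0564 in SW480, with nearly the same differences.

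The clones of a genotype were not alike for SOX4. KO clone 17 of SW480 held 2.73% and KO clone 21 held 24.4% of the WT mean, a difference of 8.92-fold between clone means. The test between these clones gave a log2 difference of -3.14 (SE 0.11, adjusted p = 8.61e-12), where 4.61% of genes were called. In HCT116 the WT clones themselves differed, with clone 4 above clone 6 by 1.17 on the log2 scale (SE 0.16, adjusted p = 0.00443) beside 1.44% of genes called. Without KO clone 17 the SW480 difference of KO minus WT was -2.03, and without KO clone 21 it was -5.17. In HT29 the WT libraries held 2006, 1866, 2747 and 2179.7 normalized counts, and the KO libraries 1468 and 1372 (clone 28) and 2205 and 2094 (clone 38). KO clone 38 lay inside the WT range and KO clone 28 below it, and the difference of -0.32 was not called (SE 0.21, adjusted p = 0.477).

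SOX12, the other SoxC gene measured, encodes the weakest activator of that group. In SW480 it fell to 50.2% of WT, from 1171, 1227, 1314 and 1118 normalized counts in WT to 652 and 693 (KO clone 17) and 561 and 516 (KO clone 21). The groups did not overlap, and the log2 difference of -1.0015 (SE 0.10, adjusted p = 2.16e-05) lay barely past the fold threshold. It remained past that threshold in 6 of 12 fits that each left out a library or a clone, with differences from -1.16 to -0.84. The fits in which it was not called left out either round of KO clone 21, the whole of that clone, round B of WT clone 4, round A of WT clone 5 or the whole of WT clone 5, and a pseudocount of 5 gave -0.997. In HCT116 the WT libraries held 1787, 1673, 1478 and 1640.2 normalized counts and the KO libraries 981, 1033, 1105 and 959. All KO libraries were lower, and the difference of -0.69 (SE 0.10, adjusted p = 0.00134) passed the adjusted p but not the fold threshold. By adjusted p alone, 14% of all genes passed in HCT116, 48.1% in SW480 and 2.56% in HT29.

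In HT29, SOX12 differed between the clones of each genotype. WT clone 11 had 959 and 955 normalized counts and WT clone 40 had 156 and 203. KO clone 28 had 99.6 and 76.3 and KO clone 38 had 356 and 394. The order was thus WT clone 11, KO clone 38, WT clone 40 and KO clone 28, each without overlap. WT clone 11 exceeded WT clone 40 by 2.42 on the log2 scale (SE 0.23, adjusted p = 0.000654), and KO clone 28 minus KO clone 38 gave -2.09 (SE 0.23, adjusted p = 0.000953). Between these clone pairs 7.58% and 12.5% of all genes were called, or 9.02% and 16% by adjusted p alone. By adjusted p alone the shares were 2.61% (WT) and 7.16% (KO) between clones of HCT116 and 8.88% (WT) and 28% (KO) between clones of SW480. The difference of KO minus WT was -1.19 with an SE of 0.78 and an adjusted p of 0.471, which left a 95% interval from -2.94 to 0.57. Without WT clone 11 the difference was 0.0237.

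**Figure D2:**
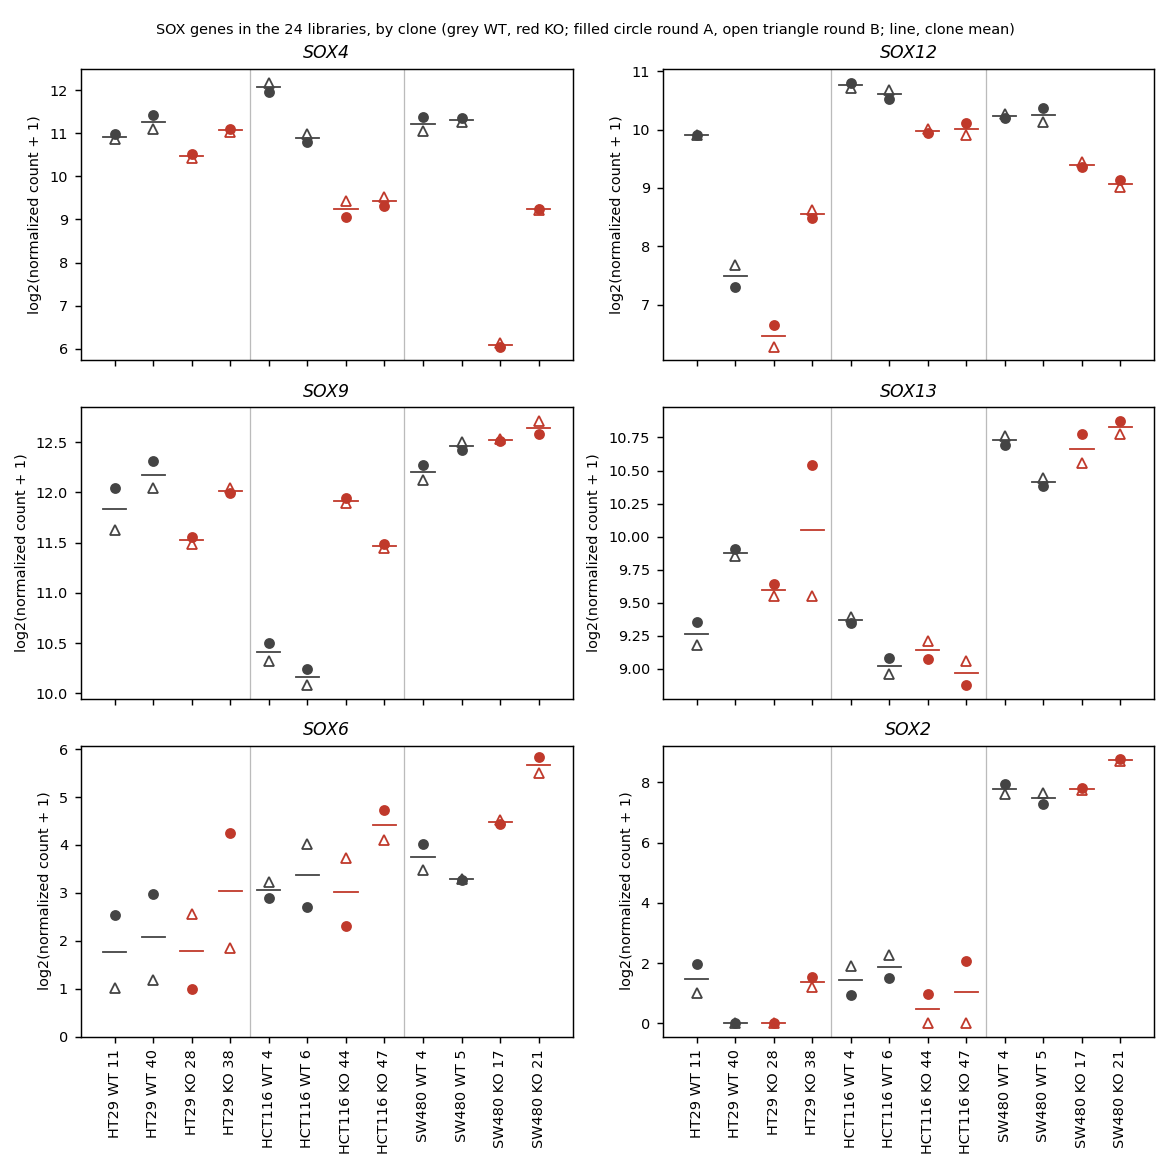
Normalized counts of 6 SOX genes in the 24 libraries, as log2 of the value plus 1, by line and clone, with a separate vertical scale in each panel. Rounds of a clone lie close together for SOX4 and SOX12, whereas clones of 1 genotype lie far apart for SOX12 in HT29 and for SOX4 in the KO clones of SW480 (609 and 592 against 65 and 70 normalized counts).

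SOX9 rose in HCT116 KO clones to 2.67 times the WT mean. The WT libraries held 1449 and 1281 (clone 4) and 1212 and 1081 (clone 6) normalized counts, and the KO libraries 3942 and 3795 (clone 44) and 2872 and 2781 (clone 47). Every KO library exceeded every WT library, and the log2 difference was 1.40 (SE 0.14, adjusted p = 9e-05). With clones averaged it was also 1.40 (adjusted p = 0.0059). Leaving out either KO clone kept it past the thresholds, with clone 44 at 3.08 times and clone 47 at 2.25 times the WT mean. In HT29 the libraries of KO clone 28 (3015 and 2868) lay below all WT libraries (3153 to 5074 normalized counts) and those of KO clone 38 (4070.2 and 4206) within them, with a difference of -0.24 (SE 0.20, adjusted p = 0.578). In SW480 the WT libraries held 4957, 4468, 5468 and 5801 and the KO libraries 5835, 5921, 6107 and 6713 normalized counts. The KO libraries were all higher, yet the difference was 0.25 (SE 0.09, adjusted p = 0.0371), far inside the fold threshold.

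SOX13, a SoxD factor that can bind TCF factors, was not called between KO and WT in any line. HT29 gave a difference of 0.25 (SE 0.28, 95% interval -0.38 to 0.88, adjusted p = 0.68). HCT116 gave -0.14 (SE 0.14, -0.44 to 0.16, adjusted p = 0.538), and SW480 gave 0.18 (SE 0.10, -0.0537 to 0.41, adjusted p = 0.186). In HT29 the WT libraries held 654, 578, 959 and 923 normalized counts and the KO libraries 797, 748, 1490.15 and 751. The highest value belonged to round A of KO clone 38, while round B of the same clone lay within the WT range. In HCT116 the WT range of 497 to 672 contained all but 1 KO library (469), and in SW480 the KO range of 1505 to 1880 overlapped the WT range of 1332 to 1739.

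SOX6, the other SoxD gene, was scarce in every line. In SW480 it rose from 15.2, 10.1, 8.69 and 8.81 normalized counts in WT to 20.7 and 22.02 (KO clone 17) and 56.0 and 44.2 (KO clone 21). All KO libraries were higher, and the log2 difference was 1.56 (SE 0.36, adjusted p = 0.00484). SOX6 passed the filter on low values here through the KO libraries. KO clone 21 exceeded KO clone 17 (log2 difference of clone 17 minus clone 21 -1.18, SE 0.37, adjusted p = 0.0262), although the adjusted p was 0.0548 with DESeq2. The change was no longer called without KO clone 21 (0.97), without WT clone 5 (adjusted p = 0.05297) or with clones averaged (adjusted p = 0.0712). In HCT116 the WT libraries held 5.54 to 15.2 and the KO libraries 3.93, 12.2, 25.7 and 16.2 normalized counts, with a difference of 0.51 (SE 0.52, adjusted p = 0.564). The 25.7 came from the library that stood apart, and the other 3 KO libraries had 10.8 ± 6.25. SOX6 no longer passed the filter on low values without that library, nor without round B of KO clone 44, KO clone 47 or WT clone 6. In HT29 SOX6 had 1 to 7 reads per WT library and 1, 5, 19 and 2 reads in the KO libraries, and was not tested.

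SOX2, a pluripotency and neural progenitor factor, exceeded 4 reads in libraries of SW480 and in no other. The SW480 WT libraries held 249, 195, 156 and 201 normalized counts, KO clone 17 held 223 and 212, and KO clone 21 held 441 and 422. KO clone 17 lay within the WT range and KO clone 21 at 2.16 times the WT mean. The difference of KO minus WT was 0.63 (SE 0.26, adjusted p = 0.0706). Without KO clone 17 it was 1.12 and was called (adjusted p = 0.000457), and without KO clone 21 it was 0.14 (adjusted p = 0.549). Between the KO clones the difference was -0.99 (SE 0.16, adjusted p = 0.000215), just inside the fold threshold. In WT HT29 SOX2 had 4 reads over 4 libraries and in WT HCT116 it had 10. The WT SW480 mean was thus 206 times that of HT29 (95% interval of counting error 80.3 to 754) and 85.5 times that of HCT116 (46.5 to 178). Both differences were called, with fitted values of -6.89 and -5.97 (adjusted p = 8.42e-09 and 4.39e-08) that depend on the pseudocount. SOX2 passed the filter on low values through the SW480 libraries alone, so these calls are no further support. Between KO and WT clones of HT29 and HCT116, with at most 4 reads in any library, SOX2 was not tested.

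SOX21, whose product opposes SoxB1 activators, had 4 reads in round B of SW480 WT clone 4, 1 read in round B of KO clone 21 and 0 in the other 22 libraries. A count of 0 allows up to 3 reads per library, so a low level of SOX21 was not detectable at this depth.

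Of the 7 members, 4 were tested between KO and WT in HT29, 5 in HCT116 and 6 in SW480, and 5 of these 15 tests were called, 2 upward and 3 downward. In HT29 limma called 0 of 4 members, where 2.30% of all genes were called. None of the 4 had an unadjusted p under 0.05, and neither edgeR nor DESeq2 called any. In HCT116 2 of 5 were called (SOX4 lower, SOX9 higher), beside 5.06% of all genes. In SW480 3 of 6 were called (SOX4 and SOX12 lower, SOX6 higher), beside 17.5%. The tested members had a median absolute log2 difference of 0.28 in HT29, where that of all tested genes was 0.31. The same medians were 0.69 and 0.25 for HCT116, and 0.82 and 0.35 for SW480. Because a member passes the filter where 1 genotype is high, these medians describe the tested members only. No member was called between KO clones 44 and 47 of HCT116 or between WT clones 4 and 5 of SW480, where limma called 3.28% and 1.97% of genes. At an unadjusted p under 0.05 these comparisons held 1 and 2 members, and edgeR and DESeq2 called none there.

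**Figure D3:**
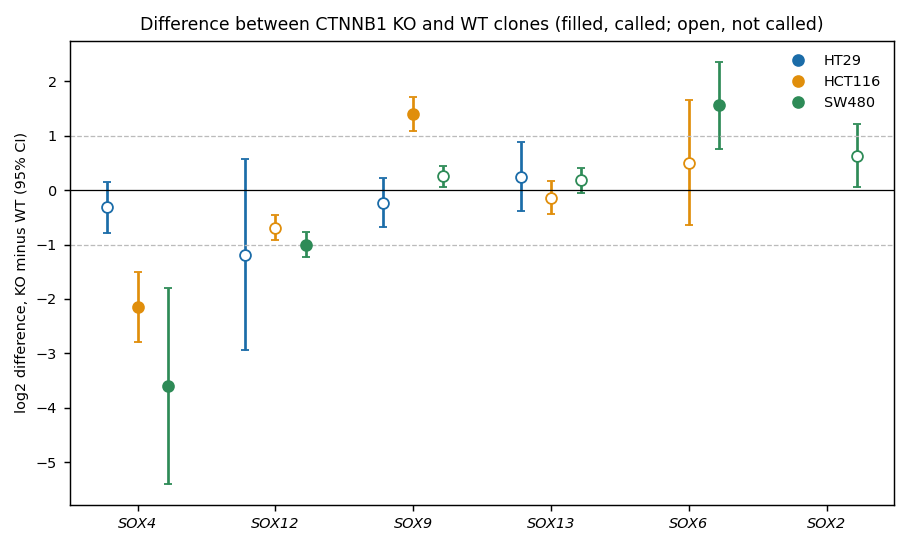
Log2 difference of KO minus WT for 6 SOX genes in HT29, HCT116 and SW480, with 95% confidence intervals from limma; filled points were called and dashed lines mark the fold threshold. SOX4 lies at -2.14 in HCT116 and -3.60 in SW480, SOX9 at 1.40 in HCT116, and genes without a point in a line were not tested there.

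The KO effects of different lines were compared directly, as the difference of their log2 differences over all 24 libraries. For SOX4 the effect in HT29 was weaker than in SW480 by 3.28 (SE 0.76, adjusted p = 0.00394). This SOX4 difference ran from 2.57 to 3.81 under the alternative fits. The 95% intervals of its other differences were wide, at 0.25 to 3.40 for HT29 against HCT116 (adjusted p = 0.159) and -0.12 to 3.03 for HCT116 against SW480 (adjusted p = 0.245), and neither was called, although DESeq2 called the former (1.95, adjusted p = 0.0442). For SOX9 the effect in HCT116 exceeded that in HT29 (HT29 minus HCT116 -1.64, SE 0.22, adjusted p = 4.04e-05) and that in SW480 by 1.15 (SE 0.22, adjusted p = 0.000766). SOX12 gave differences of -0.50, -0.18 and 0.31 with SE of 0.71 each, none of them called. Over these comparisons 1 of 6 tested members was called in each, beside 5.39% of all genes for HT29 against HCT116, 12.3% for HT29 against SW480 and 10% for HCT116 against SW480. All called differences missed an adjusted p of 0.05 when the rounds of a clone were averaged, at 0.195 for SOX4 and at 0.0803 and 0.108 for SOX9.

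The make-up of the 7 genes by level per kb shifted with these changes in HCT116 and SW480. SOX9 made up 23.7 ± 4.27% (SD, n = 4) of their summed level in WT and 66.4 ± 4.65% in KO libraries of HCT116, and SOX4 44.0 ± 9.77% and 10.6 ± 2.29%. In SW480 the share of SOX9 was 55.5 ± 3.11% in WT and 73.7 ± 3.24% in KO libraries, and that of SOX4 21.4 ± 1.24% and 3.05 ± 2.71%. In HT29 the shares of SOX9 (60.6 ± 4.31% and 62.7 ± 2.77%) and SOX4 (25.9 ± 2.01% and 25.3 ± 0.30%) overlapped between genotypes. For HT29 the summed level per kb was 1738 ± 227 among WT and 1445 ± 328 among KO libraries. HCT116 had 1388 ± 349 and 1276 ± 146, and SW480 had 2367 ± 152 and 2125 ± 196. These shares restate the levels above and were not tested.

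**Figure D4:**
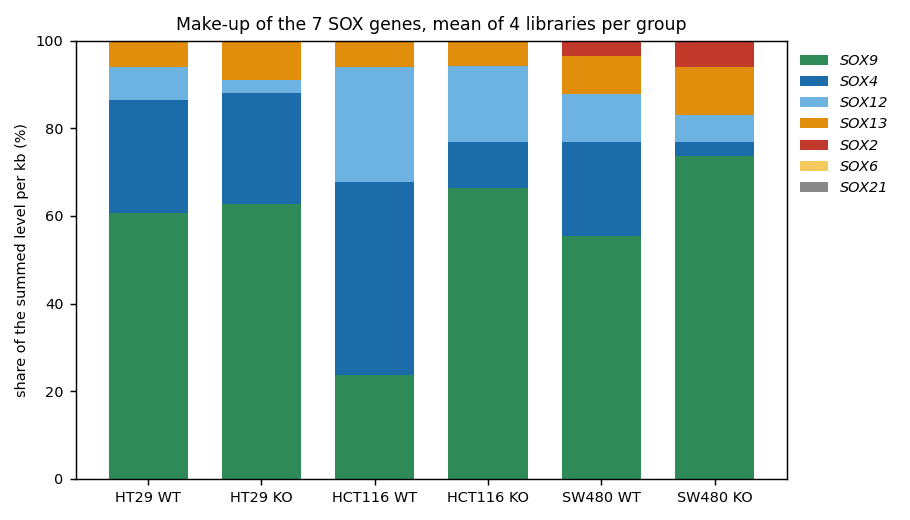
Share of each of the 7 SOX genes in their summed level per kb of exon, in percent, as the mean of the 4 libraries of each line and genotype. SOX9 takes 66.4% in HCT116 KO against 23.7% in HCT116 WT, and its share is similar in WT and KO libraries of HT29.

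Of 12 other SOX genes, 3 stayed at 3 reads or fewer in every library and 6 reached 10 or more in at least 4 libraries. In HT29 3 of them were tested between KO and WT, and 4 each in HCT116 and SW480. Limma called 0 in every line, beside 2.30%, 5.06% and 17.5% of all genes. At an unadjusted p under 0.05 there were 0, 1 and 2, edgeR called none, and DESeq2 called SOX8 in HCT116. Past the fold threshold, those with the lowest adjusted p were SOX8 in HCT116, another SoxE gene, with 214 ± 71.6 normalized counts among WT and 101 ± 53.5 among KO libraries (log2 difference -1.15, SE 0.37, adjusted p = 0.0625), and the SoxB1 gene SOX1 in SW480, with 46.5 ± 7.78 and 20.7 ± 19.5 (-1.79, SE 0.71, adjusted p = 0.0631). SOX8 was called in HCT116 without the library that stood apart (-1.45, adjusted p = 0.0205) and with DESeq2 (-1.07, adjusted p = 0.0179), and also without KO clone 47, without round B of WT clone 4 and with no filter on low values. With no such filter it was called in SW480 too (-2.58). There SOX8 stood near the counting floor, at 7.89 ± 3.49 (WT) and 0.48 ± 0.55 (KO) normalized counts. SOX1 was called in SW480 without KO clone 17 (-3.30) or either of its rounds. SOX18, a vascular SoxF factor, of SW480 stood at 109 ± 12.8 (WT) and 63.2 ± 6.71 (KO) (-0.77, SE 0.15, adjusted p = 0.00202), inside the fold threshold. The overlapping RNA gene SOX9-AS1 had at most 25 reads in any library and was not called, at 6.72 ± 4.91 (WT) and 13.2 ± 9.69 (KO) normalized counts in HCT116, or 8.64 ± 4.19 (n = 3) in KO without the library that stood apart. These names were chosen after their values were seen.

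Among the TCF/LEF factors, the HMG-box partners of β-CATENIN, 1 of 2 tested genes was called lower in HT29, 2 of 3 in HCT116 and 2 of 4 in SW480, where 2.30%, 5.06% and 17.5% of all genes were called in either direction. None was called higher. TCF7 fell in all 3 lines, with log2 differences of -1.96 for HT29, -1.02 for HCT116 and -1.52 for SW480. LEF1 fell in SW480 (-3.52) and TCF7L2 in HCT116 (-1.57). In SW480 TCF7L2 stood at 633 ± 53.7 (WT) and 858 ± 85.6 (KO) normalized counts (0.44, adjusted p = 0.00347), inside the fold threshold. Of 12 WNT-responsive genes, several of whose products dampen the pathway and among which LEF1 is counted again, 3 of 6 tested were called lower in HT29, 2 of 8 in HCT116 and 10 of 11 in SW480, beside the same shares of all genes. None was called higher. DKK1 had positive differences that were not called, of 3.03 in HT29 (adjusted p = 0.0856) and 0.75 in HCT116 (adjusted p = 0.318). In SW480 its difference of 0.73 (adjusted p = 0.00881) lay inside the fold threshold. In SW480 the level fell from 1285 ± 227 to 3.79 ± 3.44 normalized counts for NOTUM, from 3794 ± 544 to 14.0 ± 10.5 for SP5 and from 444 ± 158 to 1.18 ± 1.41 for ASCL2, while NKD1 gave a log2 difference of -6.08. The tested genes of this list had a median log2 difference of -0.57 (all genes 0.031) for HT29, -0.80 (all genes -0.014) for HCT116 and -5.36 (all genes -0.0042) for SW480.

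Of 15 crypt and differentiation genes linked to SOX9, 1 of 9 tested rose in HT29, 1 of 6 fell in HCT116, and 4 rose and 1 fell among 7 in SW480, beside 2.30%, 5.06% and 17.5% of all genes called. In HCT116, where SOX9 rose, the called gene was KRT20, a keratin of mature colonocytes, which fell from 77.8 ± 19.2 to 0.48 ± 0.56 normalized counts (0.64 ± 0.56 without the library that stood apart), and KRT20 rose in HT29 by 2.34. In SW480 the adhesion gene CEACAM1 rose by 4.74, the goblet cell mucin MUC2 by 3.35 from 2.68 ± 1.51 normalized counts, and the Paneth cell product LYZ by 2.66 from 2.93 ± 0.90, while the gut identity factor CDX2 fell by 3.49. MUC2 and LYZ in SW480 reached the filter value of 10 in KO libraries alone, and KRT20 in HCT116, NOTUM and ASCL2 in SW480 and SALL4 in HT29 in WT libraries alone. Such genes could be tested only through the genotype in which they were high. The counts of called genes given for their lists include them, but their calls lend those lists no support. Of 13 partner factors of SOX proteins, 1 of 11 tested was called in HT29 (SALL4, lower), 0 of 8 in HCT116 and 2 of 11 in SW480 (KLF4, higher by 2.49; POU3F1, lower), and the share in SW480 lies near the 17.5% of all genes. In HCT116 limma called 5.06% of all genes, 3 of the 8 factors had an unadjusted p under 0.05, and edgeR and DESeq2 called 0. DESeq2 called 3 of 11 in HT29 and 3 of 11 in SW480, and edgeR 1 and 2. KLF4 also had a difference of 2.45 in HT29 (adjusted p = 0.0775 with limma), which was not called. SALL4 stood at 25.2 ± 7.24 and 4.04 ± 1.98 normalized counts, and POU3F1, a POU factor, at 45.0 ± 13.5 and 9.89 ± 4.26.

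The genes most like each member over the 12 clone means, by Pearson r of log2 values among 18609 genes, were EFNA4 (0.91) and HNRNPA1P52 (0.84) for SOX4 and ENTPD1 (0.98) and SPINDOC (0.97) for SOX12. For SOX9 they were CCDC9B and LINC01134 (0.94 each), for SOX13 NIPSNAP3B and PDLIM4 (0.97 each), for SOX6 SHC4 (0.96) and GLT8D1 (0.94), and for SOX2 HTRA1 and CD99L2 (0.99 each). SOX2 lay at the counting floor in HT29 and HCT116, so its r mainly restates that it was high in SW480 alone. Clone means share their line and genotype, and no p is given. Between the SoxC genes themselves r was 0.05.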

How the data were processed

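RNA of 2 WT and 2 KO clones each of HT29, HCT116 and SW480 was sequenced in 2 rounds (24 libraries). Per the labels, the authors used TruSeq RNA v2 libraries, STAR 2.7.5b on GRCh37, featureCounts 2.0.1 and DESeq2. The values deposited by the authors are signal: each count was divided by the size factor of its library; dividing by the smallest step gave whole reads for 100% of values (tolerance 0.1). Tables of the authors' own comparisons (group means, fold changes, p-values) were not used. Identifiers were named and measured with GENCODE on GRCh37 (95.8% with a symbol); exon length is the union of its exons.

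Genes at 10 or more in at least 4 libraries of a fit were tested with limma 3.58.1 (trend, robust) on log2(value + 1) of the deposited values, with Benjamini-Hochberg adjustment over all genes tested; called means an adjusted p under 0.05 and an absolute log2 difference over 1. A log2 difference on this scale understates changes of low genes. The design had named edgeR for raw counts; since the values are scaled, edgeR 4.0.16 and DESeq2 1.42.0 were run on recovered reads as alternatives. All were tested on simulated reads drawn without differences between clones, with changes placed in well-covered genes. Those simulations do not cover the spread between clones or low genes. A floor is 3 reads per library; intervals and floors cover counting error only. The log2 difference of round A minus round B within each clone was correlated over tested genes between pairs of clones of a line. It gave r of 0.18 to 0.37 in HCT116 (6 of 6 pairs over 0.1), -0.31 to 0.42 in HT29 (2 of 6) and -0.041 to 0.13 in SW480 (1 of 6). The members and gene lists were chosen with earlier results of these data known. By rule, the text names CTNNB1, all members, up to 6 called genes per list, and 2 most similar genes per member. Python 3.11.15 and R 4.3.3 were used. The summed level of 1 marker list is not reported here.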

Additional observations from a re-analysis of the deposited data

Results flagged for a closer look

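In 34 groups of 4 libraries, 2 values lay far from the other 3 of their group by Dixon's criterion, where chance gives about 1 in 20. The 2 flags among 34 groups are thus near the share that chance gives. SOX13 stood at 1490.15 normalized counts in round A of HT29 KO clone 38, with the other 3 HT29 KO libraries at 748 to 797. SOX21 stood at 3.68 normalized counts in round B of SW480 WT clone 4, which is 4 reads, with the other 3 at 0. Any value above 0 beside 3 values of 0 meets this criterion, so the SOX21 flag carries no information.

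For 3 comparisons, the difference of the KO effect between lines passed the test of the difference itself. The SOX9 effect of HCT116 minus that of SW480 was 1.15 and that of HT29 minus that of HCT116 was -1.64. The SOX4 effect of HT29 minus that of SW480 was 3.28.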

How the results depend on the processing

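In HCT116 the members called between KO and WT numbered 2, and 1 with clones averaged. In SW480 they numbered 3, and 1 with clones averaged, without KO clone 21 or without WT clone 5. Members called where KO effects of lines were compared numbered 3, and 0 with clones averaged, where each arm keeps 2 values; between clones of 1 genotype they numbered 5, and 10 without the fold threshold, where 2.61% to 28% of all genes passed. Under the replicate block (the round) the KO comparisons held 0 (HT29), 2 (HCT116) and 3 (SW480) called members, and the block changed no call. Signs turned only where no call stood. Without clone HT29 WT 11 the difference of KO minus WT was -0.0588 for SOX13 and 0.0237 for SOX12, without HT29 KO clone 28 it was 0.0108 for SOX9, and without HCT116 WT clone 4 it was 0.0358 for SOX13. WT HCT116 minus WT SW480 ranged from -0.0179 to 0.44 for SOX4 without each library, and the SOX12 effect of HT29 minus SW480 from -0.65 to 0.23. Of 1109 values under an alternative, 1069 kept direction and call. The cause was not tested. With 2 clones per group, the spread between clones limits every comparison, and SOX21, SOX2 outside SW480 and SOX6 lie near the counting floor.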
